A study of Homo sapiens with 8 samples.

Results

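Imprinted genes are transcribed from the copy inherited from 1 parent only, the other copy being silenced by DNA methylation and chromatin marks laid down in the germ line. Most sit in clusters around a control region that is methylated on the maternal or on the paternal chromosome, so that genes of opposite parental expression lie side by side. HAP1 cells, a human line that goes back to chronic myelogenous leukaemia, carry most chromosomes as a single copy. At a locus on a single-copy chromosome the line therefore holds a maternal or a paternal copy but not both. The genes transcribed there may then reflect which kind of imprint the copy carries, as long as the imprint was kept in culture. Counts alone do not show an imprint, and neither methylation nor copy number was measured here. Which parent each chromosome came from is not given in the sources used here.

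The 34 imprinted genes described here were listed by symbol and all 34 were found among the 57996 gene symbols counted. They form 18 loci on 11 chromosomes. By their textbook expression 20 are paternally expressed, 6 are maternally expressed, and 8 are imprinted in some tissues or transcripts only and count as mixed (COPG2, UBE3A, GNAS, GRB10, PPP1R9A, BLCAP, IGF2R and INPP5F). HAP1 cells of clone 11, in which BCDIN3D was knocked out, were compared with wild-type HAP1 cells, the parental line. BCDIN3D encodes a methyltransferase that acts on the 5′ end of histidine transfer RNA and of some microRNA precursors. Each group had 2 RNA-seq libraries and 2 small RNA libraries, made from the same RNA after 48 h in medium with 10% serum. The knockout is 1 clone, so a difference between clones and an effect of the lost gene cannot be told apart. The design text calls the 2 samples of a group biological replicates, and their titles carry 2 dates that knockout and wild-type share.

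RNA-seq totals were 20065041 to 24415272 counts per library, and microRNA totals were 157706 to 346626 counts. Replicates differed by more than sampling noise, with a chi-square per degree of freedom of 4.37 in knockout and 3.62 in wild-type RNA-seq. BCDIN3D itself stood at 1.56 and 2.71 CPM in knockout and at 7.40 and 4.90 CPM in wild-type libraries (log2 fold change -1.52 ± 0.24, SE). CPM are counts scaled to a common library size (TMM), the scale used throughout. Of 10 blood cell markers, RUNX1 had 66 and 68 counts in knockout and 71 and 105 in wild-type libraries. The other 9, among them PTPRC, CD34, SPI1, GATA1 and MPO, summed to 4 and 5 counts in knockout and 6 and 23 in wild-type libraries, so defining blood markers were at or near 0 in a line labelled as leukaemic. BCR and ABL1 were both counted in every library.

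A gene was taken as on where each library of a group had at least 1 CPM, and as low where it was counted below that. CPM is not corrected for transcript length, so values are compared between groups within a gene and not between genes. In knockout cells 15 members were on, 12 were low and 7 were at 0, against 15 on, 11 low and 8 at 0 in wild-type cells. By this rule each of the 34 was on in both groups or in neither. Group means could still fall on different sides of 1 CPM. MEG3 had a mean of 1.1 CPM in knockout and 0.921 in wild-type, and DLK1 had 0.652 and 1.03. By allele class, in wild-type cells 4 of the 20 paternally expressed genes, 3 of the 6 maternally expressed genes and 8 of the 8 mixed genes were on. The numbers on in each class were the same in knockout cells. Of all 57996 genes counted, 13513 were on in knockout and 13731 in wild-type cells. In bulk RNA a low value cannot tell fewer cells with the transcript from less transcript per cell.

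**Figure D1:**
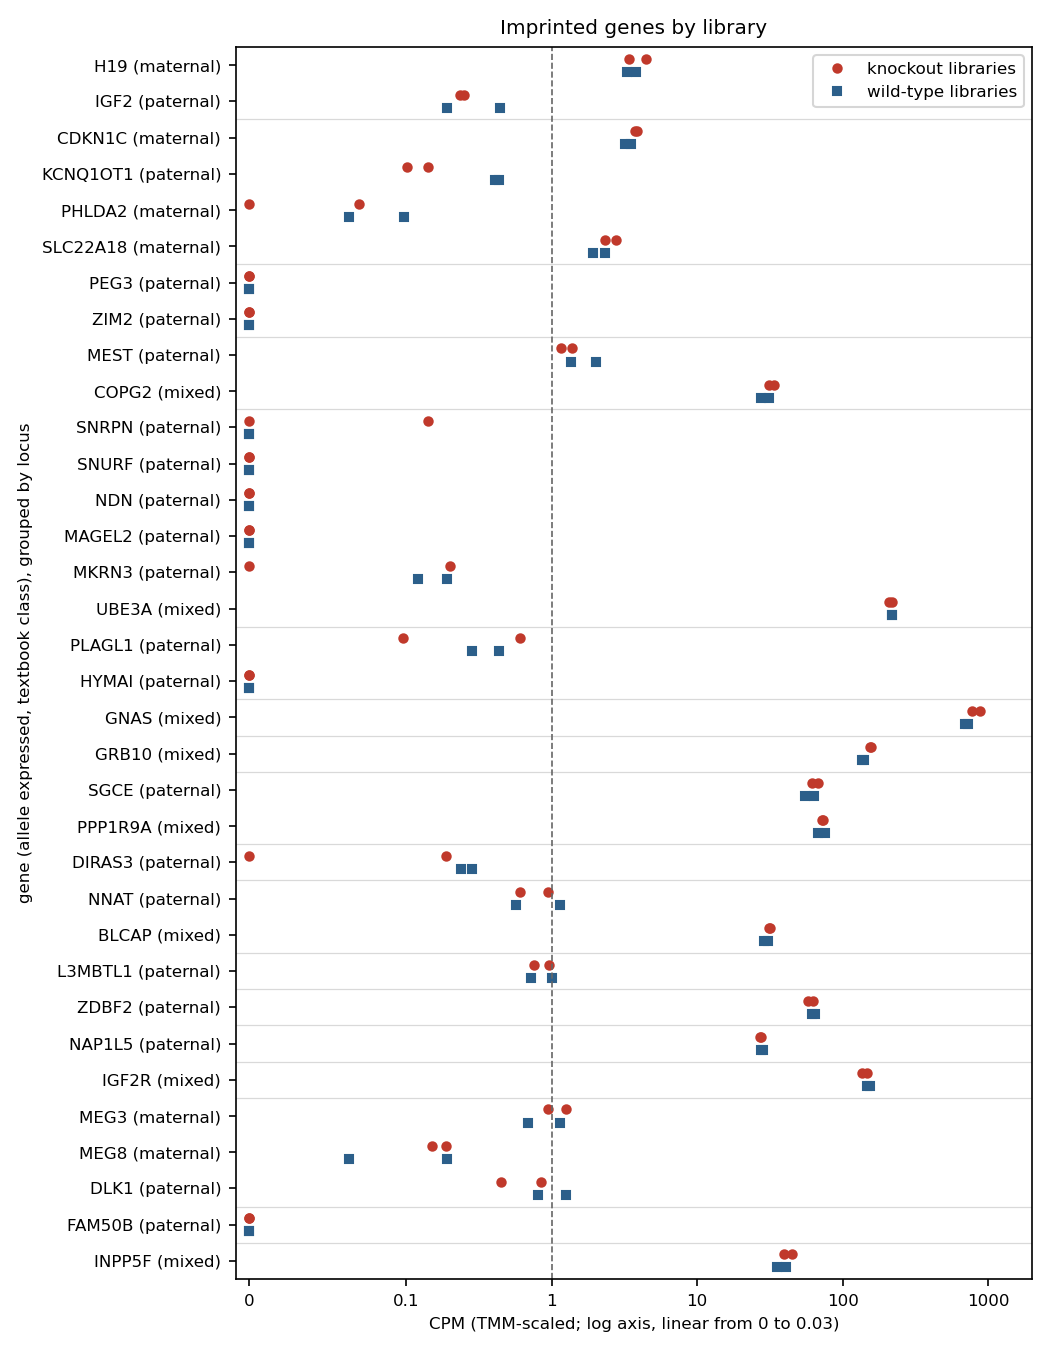
CPM of each of the 34 imprinted genes in the 2 knockout libraries (circles, upper) and the 2 wild-type libraries (squares, lower), on a log axis that is linear from 0 to 0.03, with the textbook allele in brackets and loci divided by grey lines. The dashed line marks 1 CPM; 7 genes sit at 0 in all 4 libraries, and no gene has its groups on different sides of the line by the rule used.

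Of the 34 members 19 passed the low-count filter and were tested, and 1 was called: GNAS, as higher in knockout. That is 5.26% of the tested members, against 6.56% of all 16233 tested genes, so the share of calls among the members lay near the background. By direction, 1 member was higher and 0 were lower, beside 3.06% and 3.50% of all genes. At an unadjusted p under 0.05 there were 2, GNAS and GRB10, beside 2711 of all 16233 tested genes. DESeq2 called the same gene and no other member, beside 3.61% of all genes (1.57% higher and 2.04% lower). When the date was blocked, edgeR called 2 members higher and 0 lower, beside 9.55% of all genes (4.72% higher and 4.83% lower). Without wild-type replicate 1 it called 0 members, beside 4.25% of all genes (1.41% higher and 2.84% lower), and without knockout replicate 2 again 0, beside 4.38% (1.76% higher and 2.62% lower). CPM did not overlap between the groups for 7 of the 19, with 5 higher and 2 lower in knockout, which compares with 45.3% of all tested genes (23.5% higher and 21.8% lower). The median log2 fold change of the tested members was 0.08, with 11 of 19 above 0, and that of all genes was 0.00, with 50.4% above 0. By class, the 4 tested maternally expressed genes had log2 fold changes of 0.13 to 0.27 (median 0.22), the 7 paternally expressed genes had a median of -0.06 with 1 above 0, and the 8 mixed genes had a median of 0.11. Of the 11 tested genes in the maternal and paternal classes 0 were called, so these medians rest on values that missed the threshold.

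**Figure D2:**
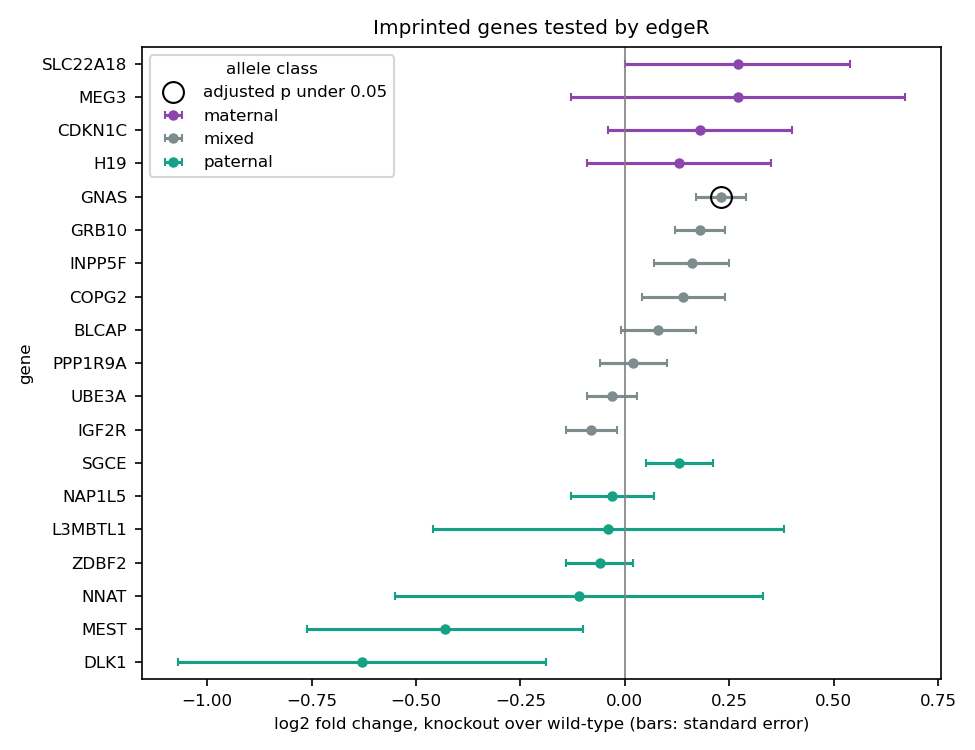
Log2 fold change (knockout over wild-type, edgeR) of the 19 imprinted genes tested, with bars for the standard error, coloured by textbook allele class. GNAS, ringed, at 0.23 ± 0.06, is the gene with an adjusted p under 0.05; the widest errors are those of DLK1 and NNAT (0.44).

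GNAS encodes the stimulatory G protein alpha subunit that couples hormone receptors to cyclic AMP. Its locus (chromosome 20, 58839748 to 58911192, GRCh38) has several promoters whose transcripts are maternal, paternal or from both copies. GNAS stood at 778 and 881 CPM in knockout and at 691 and 722 CPM in wild-type libraries. Both knockout libraries lay above both wild-type libraries, by a fold of 1.17 (log2 fold change 0.23 ± 0.06, edgeR quasi-likelihood test, adjusted p = 0.00608). Without wild-type replicate 1 the adjusted p was 0.254 (log2 fold change 0.20) and without knockout replicate 2 it was 0.218 (0.14), so the call needed both of these libraries. Counts per gene do not show which GNAS promoter the reads came from. Of the 10 nearest tested genes, 5 on each side, 0 were called, and their log2 fold changes ran from -0.22 to 0.20; the neighbour NELFCD, a subunit of the negative elongation factor, had 0.18 ± 0.06 (adjusted p = 0.0781).

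GRB10, an adaptor that dampens insulin and growth factor receptor signalling, came next. It had 156 and 155 CPM in knockout and 135 and 140 CPM in wild-type libraries. The groups did not overlap, but the log2 fold change of 0.18 ± 0.06 missed the threshold (adjusted p = 0.0769). With the date as a block it passed (blocked adjusted p = 0.0182). The remaining mixed genes were all on in both groups and none was called. UBE3A, the ubiquitin ligase lost in Angelman syndrome and imprinted in neurons, had 219 and 209 CPM in knockout and 218 and 219 CPM in wild-type libraries (-0.03 ± 0.06). IGF2R, which carries IGF2 to lysosomes, had 147 and 136 CPM against 153 and 147 CPM in wild-type (-0.08 ± 0.06, adjusted p = 0.592). In UBE3A and IGF2R the group means lay closer together than the 2 knockout libraries did. The UBE3A groups overlapped. The IGF2R groups did not, with knockout lower, though their nearest libraries both round to 147 CPM. PPP1R9A, the gene of the actin-binding protein neurabin, had 73.7 and 71.6 CPM in knockout and 75.5 and 67.6 CPM in wild-type libraries (0.02 ± 0.08). COPG2, a coatomer subunit gene beside MEST, had 33.6 and 31.2 CPM in knockout and 27.5 and 31.4 CPM in wild-type libraries (0.14 ± 0.10). BLCAP, a small membrane protein gene, had 31.0 and 31.6 CPM in knockout and 30.5 and 28.6 CPM in wild-type libraries (0.08 ± 0.09). In BLCAP the groups did not overlap, whereas in PPP1R9A and COPG2 they did. The inositol phosphatase gene INPP5F had 44.9 and 39.8 CPM in knockout and 35.3 and 40.5 CPM in wild-type libraries, again with overlap (0.16 ± 0.09, adjusted p = 0.408).

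At the 11p15.5 domains, where fetal growth genes are controlled, the maternally expressed H19, CDKN1C and SLC22A18 were on. The maternally expressed PHLDA2 and the paternally expressed IGF2 and KCNQ1OT1 were low. H19, a maternally expressed long noncoding RNA, had 3.41 and 4.42 CPM in knockout and 3.32 and 3.81 CPM in wild-type libraries, with overlapping groups (0.13 ± 0.22). Its reciprocal partner IGF2, the paternally expressed growth factor gene, had 5 counts in each knockout library and 4 and 11 counts in the wild-type libraries, too few to be tested. In the neighbouring domain CDKN1C, the cyclin-dependent kinase inhibitor p57, had 3.74 and 3.87 CPM in knockout and 3.17 and 3.52 CPM in wild-type libraries (0.18 ± 0.22, adjusted p = 0.776). The transporter gene SLC22A18 had 2.79 and 2.31 CPM in knockout and 1.92 and 2.31 CPM in wild-type libraries (0.27 ± 0.27). PHLDA2, which limits placental growth, had 1 count in knockout and 3 in wild-type. It is also classed as maternally expressed, so the maternal genes of this domain did not share a state.

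KCNQ1OT1, the paternally expressed antisense RNA that silences that domain in cis, was low in both groups. It had 3 and 2 counts in knockout and 9 and 10 counts in wild-type libraries. Both knockout libraries lay below both wild-type libraries, and the ratio of counts, scaled for depth, was 0.292 with an exact 95% interval of 0.0852 to 0.808. This interval covers counting error only. Among the 8 members that were counted but not tested, KCNQ1OT1 was the 1 whose interval left out equality. When the low-count filter was dropped, its log2 fold change was -1.73 and its adjusted p was 0.453. It runs antisense to KCNQ1, and the strand setting of the counting is not given in the sources used here, so reads of the 2 genes may not be fully separated; KCNQ1 had 18 and 31 counts in knockout and 24 and 34 in wild-type libraries.

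The 5 paternally expressed members of 15q11.2, the Prader-Willi region, were at or near 0 in knockout and wild-type cells alike, while the paternally expressed host transcript SNHG14, no member, was just on. NDN (necdin) and MAGEL2, both of the MAGE family, had 0 counts in all 4 libraries. So did SNURF, and SNRPN, the gene of a spliceosomal protein, had 3 and 0 counts in knockout and 0 and 0 in wild-type libraries. MKRN3, a ring finger gene known as a brake on puberty, had 0 and 4 counts in knockout and 4 and 3 in wild-type libraries. A count of 0 allows up to 0.0731 CPM over the knockout libraries and 0.0659 CPM over the wild-type libraries. SNHG14 had 28 and 29 counts (1.32 and 1.46 CPM) in knockout and 31 and 37 counts (1.49 and 1.5 CPM) in wild-type libraries. It overlaps UBE3A in antisense, so without the strand setting reads of the pair may not be fully separated. Of 85 small nucleolar RNA names of this region, 3 had any count, with 1 count over the knockout and 2 over the wild-type libraries; RNAs of that size are poorly recovered by total RNA libraries. SNURF and SNRPN share exons, and reads that fit both may have been counted for neither, which does not apply to NDN and MAGEL2.

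Other paternally expressed members were at 0 as well. The zinc finger genes PEG3 and ZIM2 on 19q13.43 had 0 counts in every library, as had FAM50B, a retrogene on 6p25.2, and HYMAI, a noncoding transcript on 6q24.2. PEG3 and ZIM2 share their first exons, with the same limit as SNURF and SNRPN. PLAGL1, the zinc finger growth regulator at the HYMAI locus, had 2 and 12 counts in knockout and 9 and 7 in wild-type libraries, and its groups overlapped. DIRAS3, a small GTPase of the RAS family, had 4 and 0 counts in knockout and 5 and 7 in wild-type libraries, without overlap, a ratio of counts of 0.370 with a 95% interval of 0.0869 to 1.22.

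A second set of paternally expressed genes was on. SGCE, the epsilon sarcoglycan gene, had 62.0 and 67.4 CPM in knockout and 63.6 and 54.8 CPM in wild-type libraries, with overlapping groups (0.13 ± 0.08, adjusted p = 0.468). PEG10, a retrotransposon-derived gene that starts 192 bases from SGCE in the other direction and is not among the members, stood at 1710 and 1850 CPM in knockout and 1640 and 1540 CPM in wild-type libraries. Its log2 fold change of 0.16 ± 0.05 missed the threshold (adjusted p = 0.0564) and was called when the date was blocked (blocked adjusted p = 0.0156) and without knockout replicate 1 (adjusted p = 0.00111). ZDBF2, a zinc finger gene, had 62.3 and 57.6 CPM in knockout and 61.2 and 64.1 CPM in wild-type libraries (-0.06 ± 0.08). The nucleosome assembly retrogene NAP1L5 had 27.4 and 27.2 CPM in knockout and 28.2 and 27.5 CPM in wild-type libraries (-0.03 ± 0.10), with groups that did not overlap. MEST had 1.37 and 1.16 CPM in knockout and 1.35 and 2.02 CPM in wild-type libraries (-0.43 ± 0.33, adjusted p = 0.605), just above the line that defines on. Its value moved between -0.68 and -0.09 as single libraries were left out.

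Close to that line lay NNAT, L3MBTL1, MEG3 and DLK1, each of which reached 1 CPM in 1 library of a group at most. Neuronatin (NNAT), which lies in an intron of BLCAP, had 0.946 and 0.603 CPM in knockout and 1.15 and 0.567 CPM in wild-type libraries (-0.11 ± 0.44). The chromatin gene L3MBTL1 had 0.757 and 0.955 CPM in knockout and 0.721 and 1.01 CPM in wild-type libraries (-0.04 ± 0.42). At 14q32.2 both sides of the imprint were low. MEG3, the maternally expressed noncoding RNA, had 0.946 and 1.26 CPM in knockout and 1.15 and 0.688 CPM in wild-type libraries (0.27 ± 0.40). DLK1, the paternally expressed NOTCH ligand gene, had 0.851 and 0.452 CPM in knockout and 1.25 and 0.810 CPM in wild-type libraries (-0.63 ± 0.44, adjusted p = 0.530), and its value moved between -1.16 and -0.26 as single libraries were left out. MEG8 had 4 and 3 counts in knockout and 4 and 1 in wild-type libraries, and the paternally expressed RTL1 had 2 and 1 against 4 and 3. Standard errors of these 4 tested genes ran from 0.40 to 0.44 on the log2 scale, wider than those of any other member.

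Promoters of imprinted genes are often CG-rich, since methylation of CG dinucleotides carries the imprint. RefSeq windows (GRCh38.p14) of 300 bases, from 250 before to 50 after a start, were held for 23 of the 34 members, and for each member the window with the most CG was taken. GNAS is shown as the called member, from 6 windows held, and which of its transcripts starts in the window taken was not determined. The sequences below set paternally expressed genes that were on (ZDBF2 and NAP1L5) beside ones at or near 0 (SNRPN with SNURF, NDN and FAM50B). They run 5′ to 3′ on the gene's strand, with every CG in capitals, at chr2:206274760-206275059 (plus), chr4:88697780-88698079 (minus), chr20:58888930-58889229 (plus), chr15:24954737-24955036 (plus), chr15:23687256-23687555 (minus) and chr6:3849123-3849422 (plus).
ZDBF2: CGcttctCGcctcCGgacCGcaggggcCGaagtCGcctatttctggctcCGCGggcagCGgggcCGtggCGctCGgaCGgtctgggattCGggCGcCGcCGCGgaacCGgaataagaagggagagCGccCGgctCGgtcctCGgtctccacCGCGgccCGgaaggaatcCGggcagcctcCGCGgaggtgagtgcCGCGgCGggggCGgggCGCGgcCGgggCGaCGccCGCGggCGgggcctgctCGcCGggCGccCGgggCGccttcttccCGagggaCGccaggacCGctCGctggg
NAP1L5: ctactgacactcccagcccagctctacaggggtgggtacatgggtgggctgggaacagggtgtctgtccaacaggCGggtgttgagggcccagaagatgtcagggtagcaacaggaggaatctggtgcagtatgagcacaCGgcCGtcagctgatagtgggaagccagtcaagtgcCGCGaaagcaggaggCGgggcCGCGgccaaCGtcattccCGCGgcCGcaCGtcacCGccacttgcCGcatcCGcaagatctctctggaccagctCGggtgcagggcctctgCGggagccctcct
GNAS: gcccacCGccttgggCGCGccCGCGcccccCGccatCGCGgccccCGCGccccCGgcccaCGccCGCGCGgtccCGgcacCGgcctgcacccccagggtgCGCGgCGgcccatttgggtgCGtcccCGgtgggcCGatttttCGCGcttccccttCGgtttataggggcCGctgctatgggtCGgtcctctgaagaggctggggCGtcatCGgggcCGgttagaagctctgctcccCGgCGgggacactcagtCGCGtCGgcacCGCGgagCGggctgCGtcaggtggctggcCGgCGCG
SNRPN and SNURF: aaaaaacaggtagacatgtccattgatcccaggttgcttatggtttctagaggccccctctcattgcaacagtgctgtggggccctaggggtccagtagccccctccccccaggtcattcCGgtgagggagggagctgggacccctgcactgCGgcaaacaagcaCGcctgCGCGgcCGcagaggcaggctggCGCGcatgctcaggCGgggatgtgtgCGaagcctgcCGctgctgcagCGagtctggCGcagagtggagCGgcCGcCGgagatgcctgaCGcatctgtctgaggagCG
NDN: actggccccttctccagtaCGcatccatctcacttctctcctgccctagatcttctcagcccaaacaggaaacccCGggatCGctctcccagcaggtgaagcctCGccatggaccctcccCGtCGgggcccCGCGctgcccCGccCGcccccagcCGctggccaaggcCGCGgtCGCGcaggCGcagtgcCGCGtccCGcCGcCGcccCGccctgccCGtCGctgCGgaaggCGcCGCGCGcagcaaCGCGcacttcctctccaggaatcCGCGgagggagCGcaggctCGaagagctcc
FAM50B: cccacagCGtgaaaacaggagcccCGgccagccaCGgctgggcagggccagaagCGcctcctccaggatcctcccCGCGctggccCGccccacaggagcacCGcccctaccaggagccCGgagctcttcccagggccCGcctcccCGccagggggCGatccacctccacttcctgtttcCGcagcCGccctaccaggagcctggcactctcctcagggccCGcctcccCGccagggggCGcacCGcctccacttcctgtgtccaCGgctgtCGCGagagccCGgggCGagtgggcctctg

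ZDBF2 held 50 CG and NAP1L5 held 18, while NDN at 0 counts held 35, FAM50B 23 and the window shared by SNRPN and SNURF 18. Counts of CG in genes that were on and in genes at 0 thus overlapped. Over the members with a window, the median was 35.5 CG for 12 that were on in wild-type (6 to 50), 21 for 5 that were low (15 to 39) and 20.5 for 6 at 0 (9 to 39); all 8 mixed genes are among the first. The median over 27305 genes in the table was 16. The letters TGCCGC, the core recognised by the imprint-protecting zinc finger protein ZFP57, were searched on both strands (as TGCCGC or GCGGCA, overlaps counted). They were present in 13 of the 23 members' windows, or 11 of 21 distinct windows, against 17.9% of genes and 35.7% of genes with at least 30 CG, the members' median. By class they were in 10 of 13 paternally expressed, 1 of 2 maternally expressed and 2 of 8 mixed members. This split counts genes, not distinct windows. The windows shared by SNRPN with SNURF and by HYMAI with PLAGL1 held the letters, and all these genes are of the paternal class. A match describes letters in this window and does not show binding.

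**Figure D3:**
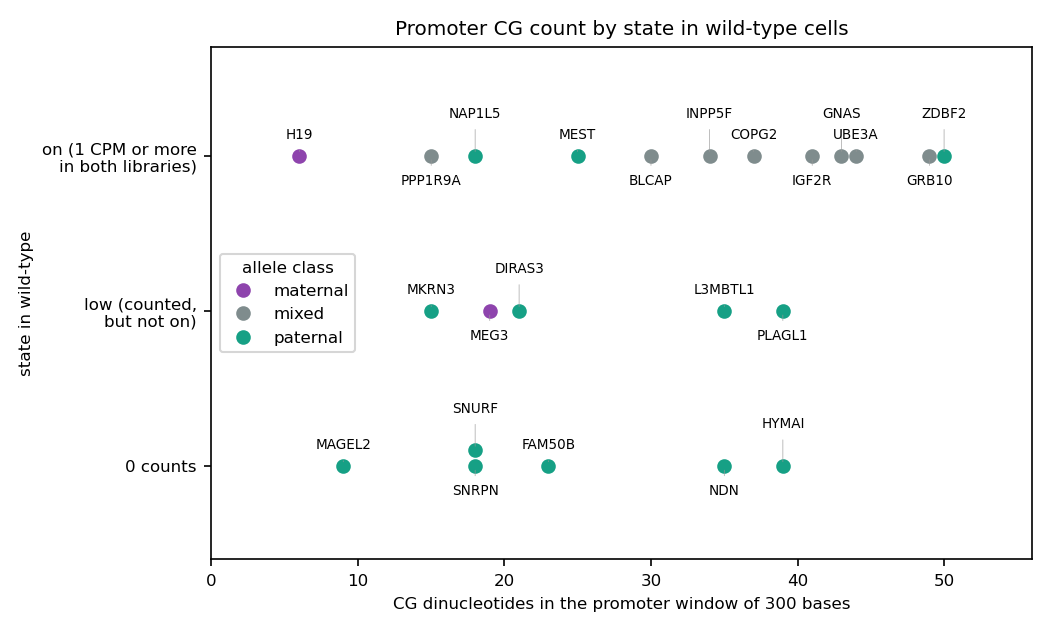
CG dinucleotides in the promoter window of 300 bases (x axis) for the 23 members with a window, in rows by state in wild-type cells (on, low or 0 counts) and coloured by allele class; SNURF is drawn above SNRPN because they share a window. Rows overlap widely: NDN and HYMAI, at 0 counts, hold 35 and 39 CG, and NAP1L5, which was on, holds 18.

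Of 73 further genes reported as imprinted in at least some tissues, 69 were in the files, 57 had a count and 31 were tested. In knockout 1 was higher and 2 were lower, beside 3.06% and 3.50% of all tested genes (6.56% in either direction), and the median log2 fold change was 0.02, beside 0.00 for all genes. KCNK9, a potassium channel gene maternally expressed in brain, had 0 and 1 counts in knockout and 13 and 19 counts in wild-type libraries. The ratio of counts was 0.0346 with an exact 95% interval of 0.000851 to 0.207 (edgeR adjusted p = 0.000466); DESeq2 gave an adjusted p of 0.0925, and without wild-type replicate 2 the gene did not pass the low-count filter. Its neighbour TRAPPC9, a trafficking complex gene imprinted in mouse brain, had 24.5 and 25.8 CPM in knockout and 17.0 and 19.7 CPM in wild-type libraries. That is a log2 fold change of 0.45 ± 0.11 (adjusted p = 0.00372), lost without wild-type replicate 1 (adjusted p = 0.184). The next tested gene along chromosome 8, CHRAC1, which encodes a histone-fold protein of a chromatin remodelling complex and is on no list used here, was higher too (0.90 ± 0.09, adjusted p = 1.22e-11), while AGO2, which lies past it, had 0.01 ± 0.08. The scaffold gene MAGI2 had 2.03 and 1.46 CPM in knockout and 6.49 and 8.22 CPM in wild-type libraries (-2.07 ± 0.23, adjusted p = 6.96e-10), and 0 of its 10 nearest tested genes were called. PHACTR2, which lies beside PLAGL1, had -0.41 ± 0.14 (adjusted p = 0.0649) and passed with the date as a block (blocked adjusted p = 0.0314).

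Some proteins copy and protect imprints through cell division, while others act on imprints or DNA methylation in another way. Of 20 genes listed for proteins of either kind 13 were tested and 0 were called with edgeR without the block, beside 6.56% of all tested genes. At an unadjusted p under 0.05 there were 2, TRIM28 and TET1, beside 2711 of all 16233 tested genes. Both passed with the date as a block, a fit that called 9.55% of all tested genes. TRIM28, the corepressor that zinc finger proteins recruit to imprinted control regions, had 846 and 909 CPM in knockout and 803 and 795 CPM in wild-type libraries (0.13 ± 0.05, adjusted p = 0.163; blocked adjusted p = 0.0418). TET1, which oxidises methylated cytosine, had 90.9 and 92.9 CPM in knockout and 102 and 108 CPM in wild-type libraries (-0.20 ± 0.07, adjusted p = 0.0844; blocked adjusted p = 0.0232). The maintenance methyltransferase gene DNMT1 (-0.04 ± 0.06) and its partner UHRF1 (0.07 ± 0.06) missed the threshold as well, and the insulator gene CTCF had 127 CPM in each library. ZFP57 had 0 counts in every library, while ZNF445, another zinc finger gene that protects imprints, was counted in all 4 (0.13 ± 0.08).

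Around IGF2 and GRB10, 14 genes of the insulin-like growth factor axis were looked up, of which 11 were tested. In knockout 2 were higher and 1 was lower, beside 3.06% and 3.50% of all tested genes. The list was chosen with earlier results of these data known, so its share of calls is no result about the axis. The substrate adaptor gene IRS1 had 17.0 and 16.5 CPM in knockout and 10.2 and 11.8 CPM in wild-type libraries (0.61 ± 0.13, adjusted p = 0.000939). IGFBP2, a binding protein of the growth factors, had 258 and 263 CPM in knockout and 215 and 223 CPM in wild-type libraries (0.25 ± 0.06, adjusted p = 0.0034), a call lost without wild-type replicate 1 (adjusted p = 0.191). The receptor gene IGF1R had 40.6 and 35.9 CPM in knockout and 46.9 and 49.0 CPM in wild-type libraries (-0.33 ± 0.09, adjusted p = 0.0104). It missed the threshold with DESeq2 (adjusted p = 0.0637), without wild-type replicate 2 (0.182) and without knockout replicate 2 (0.218). IGFBP5 had 39.6 and 56.3 CPM in knockout and 83.6 and 101 CPM in wild-type libraries; its log2 fold change of -0.95 ± 0.22 missed the threshold (adjusted p = 0.170) but passed with the date as a block (blocked adjusted p = 2.39e-11) and with DESeq2 (adjusted p = 0.0271).

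The small RNA libraries were read for microRNA names of the same loci. The 14q32 cluster, which is maternally expressed from the MEG3 side, took 0.439% and 0.587% of microRNA counts in knockout and 0.397% and 0.491% in wild-type libraries. Of its 93 mature names 61 had a count, 11 were tested and 0 were called with edgeR, beside 0.366% of all 546 microRNAs tested. At an unadjusted p under 0.05 there were 0, beside 11 of all 546. DESeq2 and the blocked fit also called 0 of the cluster's names, beside 0.916% and 1.1% of all. The most counted were miR-410-5p and miR-665, which made up 70.6% of the cluster's counts, then miR-1193. miR-410-5p had 439 and 755 counts in knockout and 541 and 601 in wild-type libraries (log2 fold change -0.14 ± 0.32), and miR-665 had 107 and 574 against 184 and 307 (0.06 ± 0.56). miR-1193 had 12 and 109 counts in knockout and 46 and 97 in wild-type libraries (-0.71 ± 0.91). Replicates of miR-665 and miR-1193 lay farther apart than the groups did. The other arm, miR-410-3p, had 0 counts in all 4 libraries and was among the 32 names of the cluster at 0. Whether the reads counted as miR-410-5p or miR-665 came from this locus was not tested. miR-127-3p, named for comparison after its values were seen, had 7 and 38 counts in knockout and 5 and 23 in wild-type libraries. Their mature sequences (RefSeq, GRCh38.p14), with bases 2 to 8, the seed, in capitals, show that none of these 5 shares a seed with another.
miR-410-5p: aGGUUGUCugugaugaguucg
miR-410-3p: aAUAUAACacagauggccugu
miR-665: aCCAGGAGgcugaggccccu
miR-1193: gGGAUGGUagaccggugacgugc
miR-127-3p: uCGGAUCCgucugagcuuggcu

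The primate microRNA cluster on 19q13.42, paternally expressed in placenta, took 0.0894% and 0.0874% of counts in knockout and 0.0466% and 0.0199% in wild-type libraries. These sums count reads shared by near-identical names more than once. With each set of names that had identical counts in every library taken once, the shares were 0.0387% and 0.0591% in knockout and 0.0415% and 0.0199% in wild-type libraries, and the groups overlapped. Of 66 names 41 had a count and 1, miR-518c-3p, was tested (0 and 22 counts in knockout, 13 and 0 in wild-type, 0.12 ± 2.91). Next came miR-520d-3p, with 0 and 9 against 26 and 0 counts, and miR-515-5p, with 0 and 9 against 8 and 13. Among names with any count, 19 of this cluster and 11 of 14q32 had the same counts as another name of their list in every library, some of them at a few counts only. With so few counts neither direction nor absence of change could be read for single names.

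**Figure D4:**
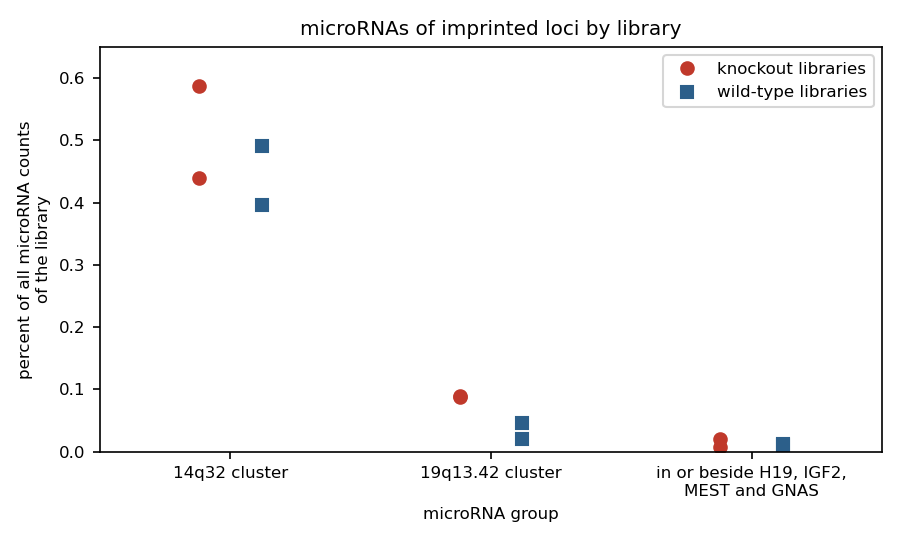
Percent of all microRNA counts of a library taken by microRNAs of the 14q32 cluster, the 19q13.42 cluster and those in or beside H19, IGF2, MEST and GNAS, in the 2 knockout libraries (circles, left) and the 2 wild-type libraries (squares, right). The 14q32 shares run from 0.397% to 0.587% with overlapping groups; the other shares are 0.0894% or lower. Names with identical counts are each included; with them taken once, the 19q13.42 groups overlap.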

How the data were processed

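Total RNA and small RNA of BCDIN3D knockout and wild-type HAP1 cells were sequenced. The authors deposited raw read counts, as whole numbers per gene symbol or per mature microRNA name, 1 file per library, with no normalisation. Per the submitters' processing notes, FastQC, cutadapt, STAR, SAMtools, featureCounts and Subread were used with the build hg38, with roles, versions, annotation and strand setting not given in the sources used here. A row named with an asterisk (0 counts) was left out of the microRNA files.

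Each assay was fitted separately in R 4.3.3 with edgeR 4.0.16: filterByExpr (minimum count 10; 16233 genes and 546 microRNAs kept), TMM, robust quasi-likelihood F test, Benjamini-Hochberg adjustment over all rows tested, threshold 0.05. Every adjusted p is from this fit unless another is named. A standard error is the log2 fold change divided by the square root of F. Alternatives were DESeq2 1.42.0, other scalings, no filter, left-out libraries and a block on the date. Libraries with the same date in their titles share a day, and their deviations correlated with r = 0.14 across genes. The fit was also run on counts simulated from its own dispersion estimates, without a date effect. Only the median recovered fold change for RNA-seq was checked there, and the share of false calls is not given. The biological coefficient of variation was 5.53% for genes and 109% for microRNAs. Intervals and floors (3 counts) cover counting error only.

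Positions came from RefSeq GRCh38.p14 (87.6% of tested genes). Members and lists, including the rule for named genes (all members; called listed genes; PEG10, SNHG14 and RTL1; the 3 most counted small RNAs of each list), were chosen with earlier results of these data known. CHRAC1, AGO2, NELFCD, miR-127-3p, miR-410-3p, miR-483-5p, miR-335-5p, miR-675-5p, PHACTR2, IGFBP5, KCNQ1, TRIM28, TET1, DNMT1, UHRF1, CTCF, ZFP57 and ZNF445 were named outside that rule, after their values were seen.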

Additional observations from a re-analysis of the deposited data

How the results depend on the processing

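Over single genes and microRNA lists, 223 values under an alternative kept their direction and their side of the threshold, 8 lost a call, 4 gained one, 9 changed sign and 1 moved. The last was the knockout minus wild-type share of 19q13.42 microRNAs, 0.0552 percentage points, which was 0.0182 with names of identical counts taken once, an alternative chosen after seeing the data. The sign changes were all in members that were not called. With library size alone PPP1R9A had a log2 fold change of -0.002. Leaving out 1 library each gave ranges of -0.07 to 0.31 for H19, -0.06 to 0.0084 for UBE3A, -0.05 to 0.10 for PPP1R9A, -0.56 to 0.45 for NNAT, -0.25 to 0.24 for L3MBTL1 and -0.07 to 0.67 for MEG3. The cause was not tested. Besides the tested members and the microRNA shares, this tally covers KCNK9, TRAPPC9, MAGI2, PEG10, SNHG14, IGF1R, IRS1 and IGFBP2. IGFBP5, PHACTR2, TRIM28 and TET1, which passed with the date as a block, are not in it. Nor is KCNK9 without wild-type replicate 2, where it was not tested.

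Among the 34 members 1 was higher in every other fit that kept all libraries, 2 were higher with the replicate block, and 0 to 1 were higher when a library was left out, with 0 without wild-type replicate 1 and without knockout replicate 2. Members lower numbered 0 under every alternative run. Of the further imprinted genes, the replicate block called 2 higher and 3 lower, beside 4.72% and 4.83% of all tested genes. DESeq2 called 1 higher and 1 lower, beside 1.57% and 2.04%. Without the low-count filter 2 were higher and 2 lower, and with library size alone 1 was higher and 3 lower. The share of all genes called by these last fits is not given, so their counts are not results about imprinted genes. The block changed no call of a member other than that of GRB10. Imprinted-locus microRNAs called numbered 0 under every alternative. The number of members on in wild-type moved to 19 at 0.5 CPM and 13 at 2 CPM, from 15 at 1 CPM. Over all fits run, the median log2 fold change of all genes lay between -0.025, with library size alone, and 0.006, without wild-type replicate 1. Tested members that were low had standard errors up to 0.44.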

Other observations

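Of 9 microRNA names that lie in or beside members 1 was tested and 0 were called, and the values of the most counted are given as such. miR-483-3p, from an intron of IGF2, had 4 and 20 counts in knockout and 0 and 0 in wild-type libraries, and miR-483-5p had 5 and 14 against 1 and 0. miR-335-5p, from an intron of MEST, had 0 and 0 counts in knockout and 13 and 1 in wild-type libraries. miR-675-5p, which is cut from H19, had 0 and 7 counts in knockout and 7 and 0 in wild-type libraries, and miR-675-3p had 1 and 6 against 4 and 17. miR-296-5p, which lies beside GNAS, had 0 and 20 counts in knockout and 0 and 12 in wild-type libraries, and was the name tested (log2 fold change 0.18 ± 2.97, edgeR adjusted p = 0.999). Small nucleolar RNAs of 14q32 summed to 4 and 4 counts in knockout and 3 and 3 in wild-type RNA-seq libraries, over 7 of 41 names with any count.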
